A study of Mus musculus with 4 samples.

Results

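The genes described here are those of 2 peptide hormone systems, ghrelin and the cholecystokinin-gastrin family, in insulin reporter-positive cells made from mouse gallbladder. They were chosen by gene symbol, and all 7 (Ghrl, Mboat4, Ghsr, Cck, Gast, Cckar and Cckbr) had a row among the 20377 genes of the deposited table. The study has 1 group, rGBC2, with 4 libraries numbered 1 to 4. Primary gallbladder cells of 8-week-old mice on the C57BL/6 background, all carrying the MIP-GFP transgene (EGFP driven by an Ins1 promoter), were expanded in culture. All 4 libraries come from cells given Pdx1, Ngn3 (Neurog3), Mafa and PAX6 plus compounds that the labels do not name, over 10 days, and then sorted on the reporter. The sort therefore selected cells with an active Ins1 promoter, and no untreated cells or native islet cells entered any comparison. The labels do not tie the libraries to separate animals or cultures, so p-values measure only the spread between these 4 libraries. Part of that spread may be technical.

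Ghrelin is a stomach and islet peptide that raises appetite and growth hormone release. It binds its receptor, the product of Ghsr, only after the acyltransferase encoded by Mboat4 has attached a fatty acid to a serine of the peptide. Cholecystokinin is made by endocrine cells of the small intestine and by neurons, contracts the gallbladder and drives pancreatic enzyme secretion. Gastrin, made in the stomach antrum and, in rodents, by the fetal pancreas, stimulates acid secretion. The receptor encoded by Cckar prefers sulphated cholecystokinin and that encoded by Cckbr binds both peptides. Both prohormones are cleaved and amidated to reach their active forms, and both can be sulphated.

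The relation between the 2 hormones of the cholecystokinin-gastrin family shows in their transcripts. The most alike ungapped stretch of 48 bases, within the longest open reading frame of both, had 37 identical bases, shown in capitals. They are printed because, among Ghrl, Cck and Gast, this pair's levels differed most widely.
Cck: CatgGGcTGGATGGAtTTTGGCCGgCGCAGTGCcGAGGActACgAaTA
Gast: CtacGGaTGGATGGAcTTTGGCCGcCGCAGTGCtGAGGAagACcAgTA
The longest run of bases that the Cck and Gast transcripts shared without a mismatch was 12 bases, and for Cckar and Cckbr it was 13 bases, so a read of usual length could match only 1 gene of each pair in full. These stretches come from the GENCODE transcripts that carry the RefSeq identifiers of the table.

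The promoters of the 3 hormone genes are shown because the hormones differed widely in level while the cells had received Neurog3, a basic helix-loop-helix factor of the class that binds E-boxes. Each window covers 250 bases before and 50 after the RefSeq start site (build GRCm38.p6), written 5′ to 3′ on the gene's strand, with every CANNTG in capitals. The motif reads the same on both strands. The windows are chr6:113719862-113720161 (minus strand) for Ghrl, chr9:121495645-121495944 (minus strand) for Cck and chr11:100334157-100334456 (plus strand) for Gast.
Ghrl: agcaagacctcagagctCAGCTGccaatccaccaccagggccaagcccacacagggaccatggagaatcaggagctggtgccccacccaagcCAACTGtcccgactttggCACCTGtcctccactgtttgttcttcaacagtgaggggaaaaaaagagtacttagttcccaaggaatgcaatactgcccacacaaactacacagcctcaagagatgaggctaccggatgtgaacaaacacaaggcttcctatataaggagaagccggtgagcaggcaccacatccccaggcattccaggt
Cck: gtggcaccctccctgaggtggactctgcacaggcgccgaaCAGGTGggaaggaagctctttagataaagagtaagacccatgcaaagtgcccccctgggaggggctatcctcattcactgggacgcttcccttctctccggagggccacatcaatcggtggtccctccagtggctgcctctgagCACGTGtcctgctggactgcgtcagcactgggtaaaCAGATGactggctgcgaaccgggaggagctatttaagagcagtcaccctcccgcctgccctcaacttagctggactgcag
Gast: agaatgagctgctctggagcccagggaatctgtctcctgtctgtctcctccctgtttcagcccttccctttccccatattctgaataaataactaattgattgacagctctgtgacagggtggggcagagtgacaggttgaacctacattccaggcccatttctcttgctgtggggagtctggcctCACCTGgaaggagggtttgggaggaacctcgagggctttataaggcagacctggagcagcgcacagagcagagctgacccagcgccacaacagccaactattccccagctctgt
CANNTG occurred 3 times in the Ghrl window, 3 times in the Cck window and 1 time in the Gast window. Of 32851 RefSeq promoter windows of this length, 72.3% held at least 1 CANNTG and 17.6% at least 3. TAAT, a core of homeodomain sites such as those of Pdx1, was found on either strand 0 times in the Ghrl and Cck windows and 1 time in the Gast window, and 58.0% of all windows held it. The motifs are a description of letters, and no binding was measured. Of the 7 genes, 5 had a promoter window in the RefSeq table. Of the 4 Ghrl windows there, the one shown has its start site 31 bases from that of the matched transcript.

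Values are RPKM (reads divided by transcript length and by library depth), which allows levels of different genes to be compared. Depth, estimated from the value of 1 read on short olfactory receptor genes, was 22150000 to 32825000 reads per library. Replicates 3 and 4 were nearest to each other, with a chi-square per degree of freedom of 13.4 in estimated reads against 141 to 346 for the other pairs, so all 4 differed by more than sampling noise. Reads of the Y-linked gene Eif2s3y were listed at 0 in replicates 3 and 4, against 48.5 and 44.7 RPKM in replicates 1 and 2. Ddx3y, also Y-linked, was listed at 0 against 26.9 and 38.2 RPKM. Replicates 1 and 2 thus held cells with a Y chromosome, of which replicates 3 and 4 showed no reads. The pairs therefore differed in the cells they held. How far their other differences were technical was not tested. Ins1 and Ins2, the hormone genes tied to the sort, reached 107 to 523 RPKM and 1091 to 4240 RPKM. Of 10 gallbladder epithelium markers, 8 lay above 1 RPKM. Sox9 (0.61 to 1.2 RPKM) and Cftr (0.18, 1.5, 0.01 and 0.02 RPKM in replicates 1 to 4) did not differ from 1 RPKM beyond the spread of the libraries. Of 7 endothelial and 7 mesenchymal markers none lay above 1 RPKM, and summed they reached 1.35 to 1.64 RPKM and 2.11 to 5.17 RPKM. Of 7 immune markers 3 lay above 1 RPKM, with sums of 152 to 190 RPKM, mostly Cd68. Csf1r was at 16.1 and 17.0 RPKM in replicates 1 and 2, against 5.14 and 5.31 RPKM in replicates 3 and 4. C1qa went the other way, at 6.77 and 6.26 RPKM against 23.7 and 23.4 RPKM. Ptprc, Lyz2 and Cd79a lay below 1 RPKM, and Cd3e was listed at 0 in every library. These marker counts read against 65.0% above 1 RPKM over all genes tested.

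The hormone genes Cck and Ghrl were abundant, whereas Cckar, Cckbr and the ghrelin acyltransferase gene Mboat4 were scarce. In limma's moderated test against 1 RPKM with Benjamini-Hochberg adjustment over 16919 genes, 2 of the 7 lay above (Cck and Ghrl), 3 below (Mboat4, Cckar and Cckbr) and 2 passed in neither direction (Gast and Ghsr). Among all genes tested 65.0% lay above 1 RPKM and 26.1% below, so a place above 1 RPKM is common and the size of the level carries the description. The median level of the tested genes was 7.38 RPKM.

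**Figure D1:**
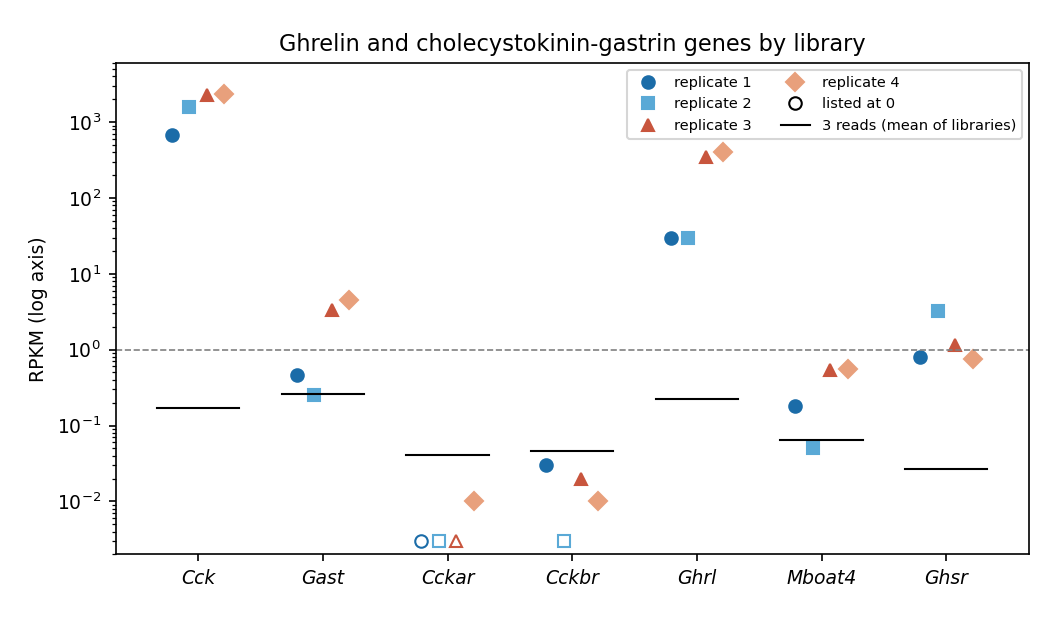
RPKM of the 7 genes (log axis) in each of the 4 libraries, with open symbols for genes listed at 0, a dashed line at 1 RPKM and short bars at the value of 3 reads (mean of the libraries). Cck lies between 679 and 2322 RPKM and Ghrl between 29.6 and 400 RPKM, while every Cckar and Cckbr value lies under its 3-read bar.

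Cck, on mm9 chromosome 9 from 121398941 to 121404807 (minus strand), was the most abundant of the 7 in every library. It was measured at 679, 1593, 2260 and 2322 RPKM in replicates 1 to 4. Replicate 1 was the lowest and the other 3 lay within a narrower range. By level it ranked 49, 17, 14 and 13 among the 20377 genes in replicates 1 to 4 and took 0.141% to 0.404% of the summed RPKM. Its level was 9.59 above 1 RPKM on the log2(RPKM + 1) scale (SE 0.40, limma adjusted p = 2.75e-06), with 4 of 4 libraries above. In a pooled library, fewer cells transcribing a gene and less transcript per cell cannot be told apart.

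Gast, on mm9 chromosome 11 from 100195725 to 100198310 (plus strand), was far scarcer than its relative. It stood at 3.36 and 4.51 RPKM in replicates 3 and 4, against 0.46 and 0.25 RPKM in replicates 1 and 2, an estimated 38.0 and 68.1 reads against 5.09 and 2.55 reads. Replicates 3 and 4 were thus above 1 RPKM and replicates 1 and 2 below it, with replicate 2 also under the 0.294 RPKM that 3 reads would give. Over the 4 libraries Gast passed in neither direction (limma adjusted p = 0.432). Relative to 1 RPKM, on the log2(RPKM + 1) scale, it lay at 1.29 with only replicates 3 and 4. With only replicates 1 and 2 it lay at -0.57. Levels of Gast from 2 libraries are descriptions only. Without replicate 4 its mean was 1.36 RPKM, against 2.15 RPKM with all 4.

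Cck exceeded Gast in 4 of 4 libraries. On the log2(RPKM + 1) scale the gap averaged 9.23 ± 0.73 (SD, n = 4). This amounts to 600-fold in RPKM + 1, less than in RPKM because Gast is low. In RPKM itself Cck was 1476, 6372, 673 and 515 times Gast in replicates 1 to 4, and the highest of these ratios rests on about 3 reads of Gast. The exact sign-flip permutation test (two-sided) gave p = 0.125, or 0.15 after adjustment over the 6 gene pairs compared, the same for every pair but Cckar and Cckbr. That is the smallest p that 4 libraries allow, so no pair can pass 0.05, and the values with their SD carry each comparison.

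Transcripts of both receptors of the family were at the limit of detection. Cckar, on mm9 chromosome 5 from 54089723 to 54098943 (minus strand), was listed at 0 in replicates 1 to 3 and at 0.01 RPKM in replicate 4, about 1 read. Cckbr, on mm9 chromosome 7 from 112574333 to 112584852 (plus strand), was at 0.03, 0, 0.02 and 0.01 RPKM in replicates 1 to 4, at most about 2 reads. The value of 3 reads lay between 0.0312 and 0.0462 RPKM for Cckar and between 0.0355 and 0.0526 RPKM for Cckbr, so every value of both genes was under it, and these bounds cover counting error only. Both lay below 1 RPKM (limma adjusted p = 2.29e-07 for each). Cckar was lower than Cckbr in 2 libraries and equal to it in the other 2, and log2(RPKM + 1) of the 2 genes differed by -0.02 ± 0.02 (SD, n = 4; p = 0.5, exact permutation by sign flips). A difference between the receptors was not detectable at this depth. Gapdh, a gene that every cell uses, was itself listed at 0 to 0.2 RPKM, so a value at or near 0 in this table can also be a failed estimate. In the body Cckar is carried by gallbladder smooth muscle and pancreatic acinar cells. Of 5 smooth muscle markers 1 (Myh11) and of 6 acinar markers 1 (Cela1) lay above 1 RPKM. The summed lists reached 2.56 to 19.8 RPKM and 7.08 to 12.04 RPKM, nearly all of it from Myh11 and Cela1, and the acinar enzymes Prss1, Amy2a5 and Pnlip were listed at 0 in every library.

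Ghrl, on mm9 chromosome 6 from 113666112 to 113669874 (minus strand), was abundant and had the largest SD between libraries of the 7 genes on the log2(RPKM + 1) scale, 2.08 against 1.09 for Gast, the next. As a ratio of the highest to the lowest RPKM, Gast varied more, 18.0-fold against 13.5-fold for Ghrl. It was measured at 349 and 400 RPKM in replicates 3 and 4, against 29.8 and 29.6 RPKM in replicates 1 and 2. Within each pair the values were close. Among all 20377 genes it ranked 179 and 162 in replicates 3 and 4, against 3687 and 3556 in replicates 1 and 2. Its mean was 202 ± 200 RPKM (SD, n = 4), and its level was 5.75 above 1 RPKM on the log2(RPKM + 1) scale (SE 0.78, limma adjusted p = 0.000698), with 4 of 4 libraries above. Within replicates 1 and 2 alone the level was 3.94 above 1 RPKM, and within replicates 3 and 4 alone 7.55. With 2 libraries each, these levels are descriptions only. Without replicate 4 the mean was 136 RPKM.

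Mboat4, the acyltransferase gene on mm9 chromosome 8 from 35178083 to 35188239 (plus strand), was low throughout. It stood at 0.54 and 0.55 RPKM in replicates 3 and 4, against 0.18 and 0.05 RPKM in replicates 1 and 2, an estimated 24.4 and 33.1 reads against 7.96 and 2.03 reads. Replicate 2 lay under the 0.0738 RPKM of 3 reads. The gene lay below 1 RPKM (mean 0.33 ± 0.25 RPKM, limma adjusted p = 0.00249). This call was lost when each library was rescaled to the same summed RPKM, as TPM are, (limma adjusted p = 0.0715) and when 0.5 RPKM was the level tested (limma adjusted p = 0.14). An antisense gene of the GENCODE annotation overlaps Mboat4, 1 antisense and 1 unclassified gene overlap Ghrl on the opposite strand, and the TruSeq v2 kit does not mark strand, so reads of the 2 strands cannot be told apart at either locus.

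Ghrl exceeded Mboat4 in every library. The mean gap in log2(RPKM + 1) was 6.35 ± 1.81 (SD, n = 4), equal to 81.8-fold in RPKM + 1. In RPKM, Ghrl was 647 and 727 times Mboat4 in replicates 3 and 4, against 166 and 593 times in replicates 1 and 2. The exact sign-flip permutation p was 0.125, the smallest possible.

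Ghsr, the ghrelin receptor gene on mm9 chromosome 3 from 27270272 to 27276932 (plus strand), was the best detected of the 3 receptor genes. It stood at 0.79, 3.25, 1.14 and 0.76 RPKM in replicates 1 to 4. Replicate 2 was well above the others, which lay around 1 RPKM. The gene passed in neither direction (mean 1.49 ± 1.19 RPKM, limma adjusted p = 0.429), and without replicate 2 its mean was 0.897 RPKM. All 4 values lay above the 0.0206 to 0.0306 RPKM of 3 reads. Ghsr did not divide the libraries as Ghrl did. In replicates 1 and 4 it was close, at 0.79 and 0.76 RPKM, where Ghrl had 29.8 and 400 RPKM. No other gene of the deposited table lay within 5000 bases of any of the 7.

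Of the 2 abundant hormone genes, Cck was higher than Ghrl in all 4 libraries. The mean gap in log2(RPKM + 1) was 3.85 ± 1.51 (SD, n = 4), equal to 14.4-fold in RPKM + 1. The ratio of Cck to Ghrl in RPKM was 22.8, 53.8, 6.47 and 5.81 in replicates 1 to 4, so the gap was narrower in replicates 3 and 4. Without replicate 2 the difference was 9.38-fold (exact sign-flip permutation p = 0.125 with all 4 libraries).

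**Figure D2:**
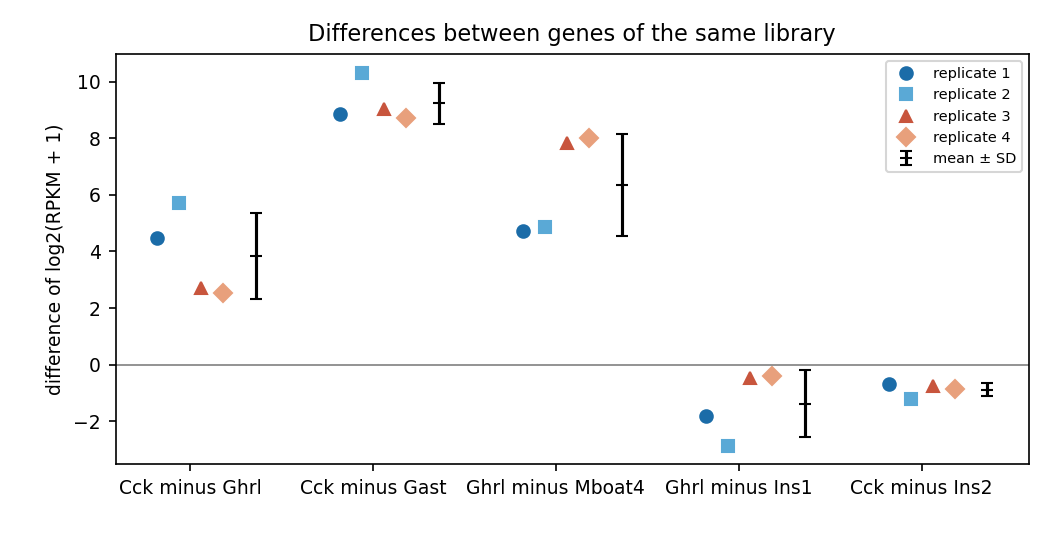
Difference of log2(RPKM + 1) between 2 genes of the same library for 5 gene pairs, 1 symbol per library, with the mean and SD of the 4 libraries as bars. Cck lies above Ghrl and Gast in every library and below Ins2 in every library, while Ghrl lies above Mboat4 and below Ins1 in every library.

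Set against insulin, Cck kept nearly the same ratio to Ins2 in all libraries and Ghrl did not keep its ratio to Ins1. Cck was 0.623, 0.43, 0.587 and 0.548 of Ins2 in RPKM in replicates 1 to 4. It was below Ins2 in all 4 libraries, and the mean gap in log2(RPKM + 1) was -0.88 ± 0.23 (SD, n = 4; p = 0.125, exact permutation by sign flips). Ghrl was 0.726 and 0.764 of Ins1 in replicates 3 and 4, against 0.278 and 0.133 in replicates 1 and 2. It was below Ins1 in all 4 libraries, with a mean gap of -1.38 ± 1.19 (SD, n = 4; p = 0.125, exact permutation by sign flips) and of -0.42 within replicates 3 and 4 alone. Since the sort was on an Ins1 promoter, both comparisons hold for the sorted cells only.

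The hormones differed in how they divided the libraries. The mean of replicates 3 and 4 over that of replicates 1 and 2 was 12.6 for Ghrl, 11.1 for Gast, 4.74 for Mboat4, 2.02 for Cck and 0.47 for Ghsr. These ratios are descriptions of library pairs that also differ in Y-linked reads, and they were not tested. Among 7492 genes above 10 RPKM in mean, the difference of Ghrl between the pairs, 3.61 on the log2(RPKM + 1) scale, was the third largest in the direction of replicates 3 and 4. Secretin (Sct) held rank 1, Sst rank 5 and Gip rank 8. The limit of 10 RPKM in mean can be passed through replicates 3 and 4 alone. Sct passed it so, with 8.26 and 3.45 RPKM in replicates 1 and 2, and the ranks are descriptions only. Cck, with 1.14, held rank 157, among the other hormone genes compared: Ins1 at 56, Gcg at 129, Ins2 at 206 and Npy at 245. Across genes the difference between the pairs also followed the GC content of the transcript (Spearman 0.571 over 11840 genes, as a description). Over the 1285 genes within 1 percentage point of the GC content of Ghrl its median was 0.21. Summed neuronal markers moved with the pairs, at 198 and 204 RPKM in replicates 3 and 4, against 135 and 75.5 RPKM in replicates 1 and 2, mostly from Uchl1 and Stmn2, with 3 of 7 above 1 RPKM. Their part in the result was not tested.

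**Figure D3:**
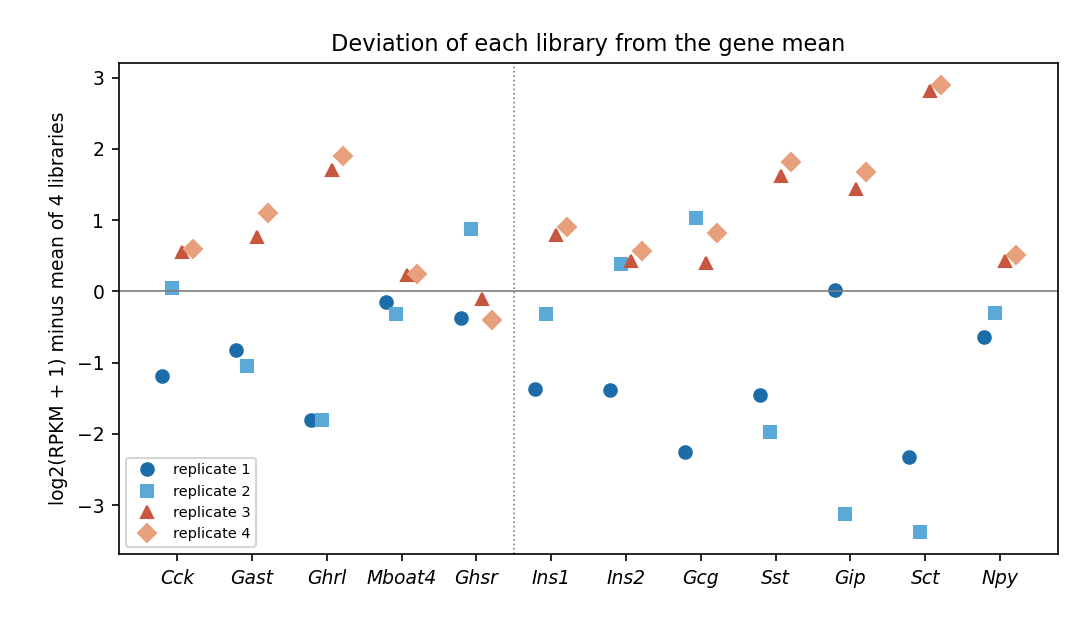
Deviation of each library from the gene's mean over the 4 libraries, in log2(RPKM + 1), for 5 of the 7 genes (left of the dotted line) and 7 other hormone genes. Replicates 3 and 4 lie above the mean for Ghrl, Gast and Sst and replicates 1 and 2 below it, whereas for Cck and Ins2 mainly replicate 1 lies apart and for Ghsr replicate 2.

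Likeness of other genes to Ghrl and Cck over the libraries was measured as the root mean square distance between profiles of log2(RPKM + 1), each centred on its mean over the 4 libraries, among the genes above 10 RPKM in mean. The 5 nearest to Ghrl were Pla2g2f, a secreted phospholipase (distance 0.156), Sst, somatostatin (0.203), Chga, the granule protein chromogranin A (0.272), Resp18, a protein of endocrine granules (0.46), and Vsig2, a membrane protein of the immunoglobulin superfamily (0.475). Over all these genes the median distance from Ghrl was 1.8 and the nearest 1% lay within 1.14. Pla2g2f was at 108 and 107 RPKM in replicates 3 and 4, against 9.67 and 9.86 RPKM in replicates 1 and 2, and Chga at 471 and 470 RPKM against 33.1 and 23.7 RPKM. Pla2g2f, Resp18 and Vsig2 lay under 10 RPKM in replicates 1 and 2 and passed the limit through replicates 3 and 4. The limit thus lets in genes of this profile, and the list is a description only.

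The 5 nearest to Cck were Adam23, a cell surface disintegrin (distance 0.0909), Stk32c, a kinase (0.103), Gpr139, a G protein-coupled receptor (0.103), Btd, which recycles biotin (0.105), and Klhl32, a kelch protein (0.107). The nearest 1% of genes lay within 0.297 of Cck and the median distance was 0.751. Klhl32, for example, stood at 34.2, 80.6, 100.8 and 100.8 RPKM in replicates 1 to 4. With 4 libraries, of which 2 were closely alike, many genes share a profile, and the distances are descriptions of these libraries.

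**Figure D4:**
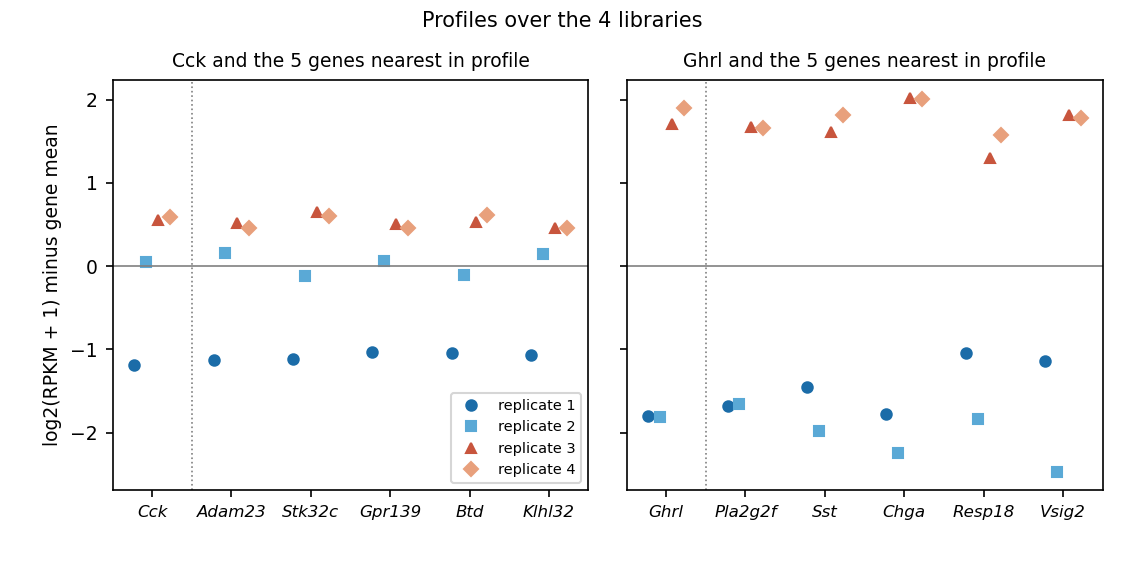
Deviation of each library from the gene's mean in log2(RPKM + 1) for Cck (left panel) and Ghrl (right panel), each followed by the 5 genes nearest in profile. Cck and its neighbours have replicate 1 lowest and replicates 3 and 4 highest, whereas Ghrl and its neighbours have replicates 1 and 2 low and replicates 3 and 4 high.

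Of 7 other genes of the ghrelin system, 6 lay above 1 RPKM and 1 below, with a median level of 6.75 RPKM. This and the lists that follow read against 65.0% above, 26.1% below and a median of 7.38 RPKM over all genes tested. Lypla1, which can remove the acyl group from ghrelin, stood at 223 ± 27.4 RPKM (SD, n = 4) and Bche, a plasma esterase that does so too, at 3.98 ± 2.66 RPKM. Nucb2, whose product is the nesfatin precursor made in stomach ghrelin cells, was at 150 ± 105 RPKM, with 306 RPKM in replicate 2. Gpr39, a receptor of the ghrelin receptor family, was even across libraries at 6.75 ± 0.26 RPKM. Mrap2, an accessory protein of the ghrelin receptor in mouse, stood at 2.23 ± 0.52 RPKM (limma adjusted p = 0.00633). Leap2, the gene of a peptide that blocks the receptor, lay below 1 RPKM, at 0.21, 0.22, 0 and 0.15 RPKM in replicates 1 to 4.

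Of 7 enzymes that mature cholecystokinin and gastrin, 5 lay above 1 RPKM, a share near that of all genes tested, and 1 below, with a median of 22.3 RPKM. Cpe, the carboxypeptidase that trims the cut prohormone, stood at 4034 ± 1048 RPKM (SD, n = 4) and Pam, the amidating enzyme, at 36.7 ± 4.62 RPKM. Tpst2 and Tpst1, the tyrosine sulphotransferases, stood at 22.3 ± 3.81 and 14.1 ± 1.16 RPKM. Among the convertases, Pcsk2 was at 623 and 640 RPKM in replicates 3 and 4, against 161 and 104 RPKM in replicates 1 and 2. Pcsk1, the other main convertase of endocrine granules, was at 1.95 and 1.67 RPKM in replicates 3 and 4, against 0.1 and 0 RPKM in replicates 1 and 2. Its level did not differ from 1 RPKM beyond the spread of the libraries (limma adjusted p = 0.519). Pcsk5, which cleaves procholecystokinin in some cells, lay below 1 RPKM at 0.32 ± 0.06 RPKM. Of 4 peptidases that break the peptides down, Tpp2 with 21.1 ± 8.05 RPKM and Enpep with 8.89 ± 5.45 RPKM lay above 1 RPKM, and Mme and Anpep below it.

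Of 8 receptor and transporter genes by which intestinal cholecystokinin cells and gastrin cells sense nutrients, 3 lay above 1 RPKM, 3 below and 2 in neither direction, with a median of 1.01 RPKM. Ffar1, a receptor for long-chain fatty acids, stood at 18.7 ± 7.21 RPKM (SD, n = 4). Next came Lpar5, a lysophosphatidic acid receptor, with 5.12 ± 1.73 RPKM and Ffar4, another fatty acid receptor, with 2.49 ± 1.19 RPKM (limma adjusted p = 0.0422). Casr, the calcium-sensing receptor, was below 1 RPKM at 0.158 ± 0.105 RPKM, as were Slc15a1, the intestinal peptide transporter, and Gprc6a, an amino acid receptor. The taste receptor subunits Tas1r1 and Tas1r3 lay near 1 RPKM.

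Of 11 regulators of ghrelin, cholecystokinin and gastrin cells, 8 lay above 1 RPKM and 2 below. The 8 include Neurog3, Pax6 and Pdx1, which were delivered to the cells. Their levels of 1290 to 2444, 1189 to 2052 and 1948 to 3739 RPKM may combine delivered and endogenous transcripts, which were not told apart. Insm1, a zinc finger factor of endocrine cells, stood at 151 ± 19.97 RPKM (SD, n = 4) and Etv1, an ETS factor, at 28.2 ± 8.94 RPKM. Nkx2-2 and Pax4, whose loss in mouse fills the fetal islet with ghrelin cells, differed in level, with Nkx2-2 above 1 RPKM at 2.41 ± 0.77 RPKM and Pax4 below it at 0.19 ± 0.08 RPKM. Fev, a serotonin-lineage factor, also lay below at 0.145 ± 0.085 RPKM. Isl1, which islet and gut endocrine cells share, had a mean of 0.765 ± 0.478 RPKM and did not pass.

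The 3 receptors raise calcium through the Gq pathway. Of 11 genes of this pathway 8 lay above 1 RPKM, a share near that of all genes tested, 2 below and 1 in neither direction, with a median of 5.30 RPKM. Gna11, a Gq-class alpha subunit, stood at 58.1 ± 9.87 RPKM (SD, n = 4), Plcb3, a phospholipase C, at 26.5 ± 4.91 RPKM, with 19.2 RPKM in replicate 2, and Itpr3, an inositol trisphosphate receptor, at 19.5 ± 2.29 RPKM. Plcb1 passed in neither direction, at 0.94 and 0.55 RPKM in replicates 3 and 4, against 6.42 and 4.37 RPKM in replicates 1 and 2. Plcb2, a phospholipase C of blood and taste cells, and Gna14, another Gq-class alpha subunit, lay below 1 RPKM.

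**Figure D5:**
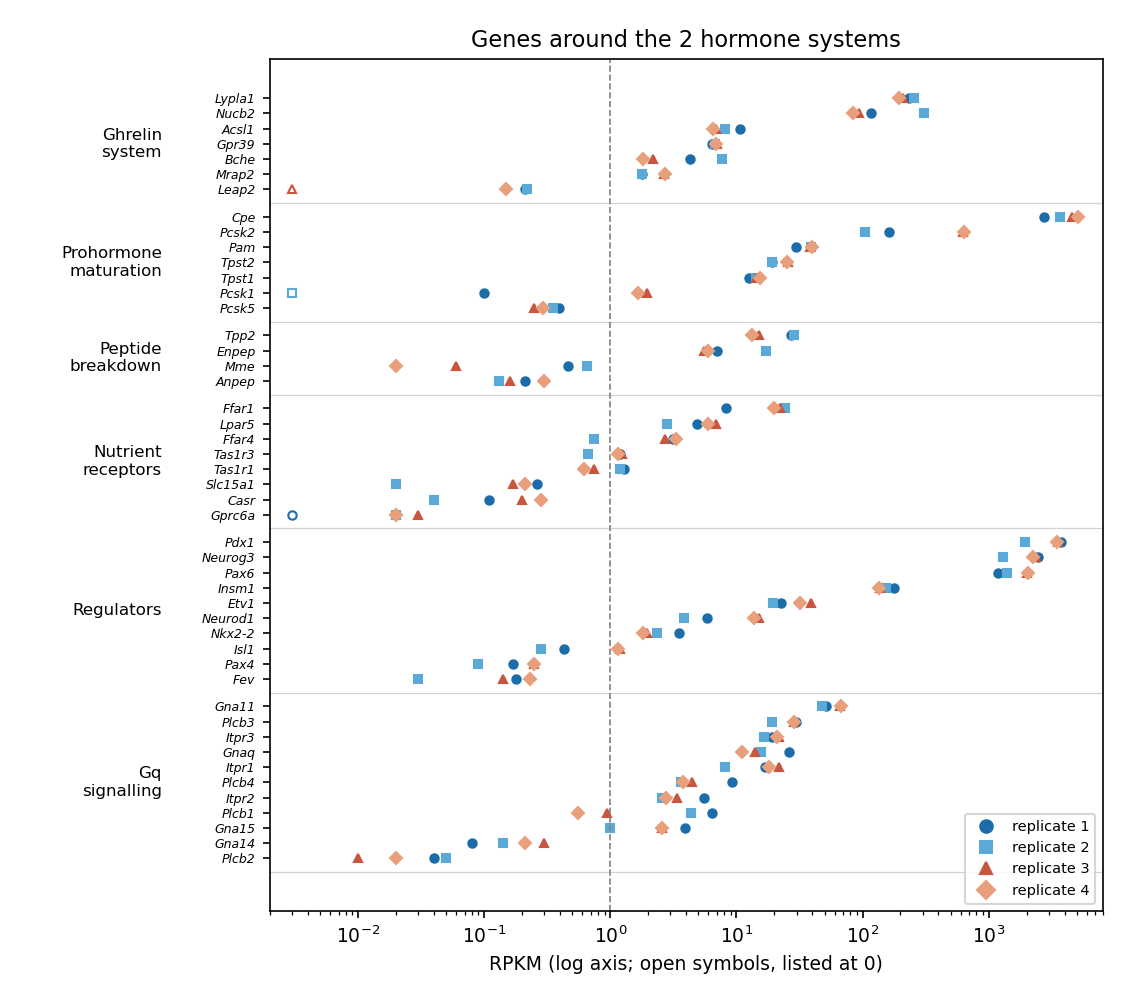
RPKM (log axis) of the genes around the 2 hormone systems, grouped by role, 1 symbol per library, with open symbols for genes listed at 0 and a dashed line at 1 RPKM. Cpe and the 3 delivered factors lie highest, Cpe at 4034 RPKM in mean, whereas Leap2, Pcsk5, Casr, Pax4 and Plcb2 lie left of the line in every library.

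Stomach epithelium is the main source of ghrelin and gastrin in the body. Of 10 of its marker genes, 2 lay above 1 RPKM and 6 below, and 2 were listed at 0 in every library. Over all genes tested 65.0% lay above and 26.1% below. Tff2, a trefoil peptide, was at 29.1, 480, 216 and 249 RPKM in replicates 1 to 4. Atp4a, the catalytic subunit of the gastric proton pump, was at 97.1 and 99.8 RPKM in replicates 3 and 4, against 18.5 and 23.3 RPKM in replicates 1 and 2. Its partner subunit Atp4b was at or below 0.16 RPKM, and Gkn2 and Tff1, which define surface mucous cells, were listed at 0 in every library. Gkn1, Muc5ac, Muc6, Pgc and Gif were also called below 1 RPKM. The summed list reached 49.04 to 504 RPKM, nearly all of it from Tff2 and Atp4a.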

How the data were processed

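RNA sequencing of 4 libraries of 1 group was analysed from the authors' deposited table of RPKM values, given to 2 decimals, 1 RefSeq transcript per gene symbol. The submitters' processing notes name build mm9 and the tools Bowtie and CASAVA 1.8.2. The counting program and strand setting are not given in those sources. The table holds 6 further per-sample columns that match no sample here and were not used. Genes at 0 in every library (3458) were not tested. The other 16919 were tested on log2(RPKM + 1), which compresses differences of low genes, against 1 RPKM with limma 3.58.1 in R 4.3.3 (trend, two-sided, threshold 0.05), after a check on simulated data. Differences within a library used an exact sign-flip permutation test. A gene at 0 in any library is given by library, since Gapdh was also at 0 in 1 library. Depth was estimated from 993 olfactory receptor genes spanning under 1100 bases, and estimated reads use GENCODE M21 transcript lengths, matched for 98.1% of genes, which may differ from the authors'. Ffar4 was matched through its older symbol. Named genes were the 7, the highest members of each list and those below 1 RPKM, and the 5 nearest in profile to Ghrl and Cck. Some listed genes enter the counts but are not reported here. Other genes named were chosen after their values were seen. Members and lists were chosen with earlier results of these data known. Alternatives changed the pseudocount, filter, scaling, tested level, variance trend and libraries used.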

Additional observations from a re-analysis of the deposited data

Results flagged for a closer look

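In 12 of 90 results examined, 1 library stood apart from the other 3 by more than the limit for 4 values in Dixon's test. For 4 independent values chance flags about 1 in 20. Replicates 3 and 4 were closely alike, so that rate does not apply here and the count was not tested against it. In replicate 2 the flagged results were Ghsr (3.25 RPKM), Nucb2 (306 RPKM), Enpep (17.0 RPKM) and, on the low side, Tas1r3 (0.66 RPKM), Neurog3 (1290 RPKM), Pdx1 (1948 RPKM) and Plcb3 (19.2 RPKM). In replicate 1 they were Plcb4 (9.30 RPKM), Cd68 (167 RPKM) and, on the low side, Ins2 (1091 RPKM). Cckar in replicate 4 (0.01 RPKM) and Pyy in replicate 3 (0.11 RPKM) were the only libraries not listed at 0. Any value above 0 would have been flagged there, and these 2 rest on a few reads at most.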

How the results depend on the processing

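The calls of Cck and Ghrl (above 1 RPKM) held under all 14 alternatives. Rescaling each library to the same summed RPKM, as TPM are, raised levels in general, that of Cck to 10.49 against 9.59 log2 above 1 RPKM. Those of Cckar and Cckbr (below) held wherever they could be tested. Mboat4 kept its direction, and its 2 lost calls stand in the report. Ghsr, in neither direction at 0.21 log2 above 1 RPKM, lay between -0.082 (without replicate 2) and 0.34 with 1 replicate left out, at -0.043 with only replicates 3 and 4, and at -0.37 against a level of 2 RPKM. Against 0.5 RPKM it passed (0.63, limma adjusted p = 0.0484). Gast, at 0.36, lay between -0.003 (-0.002592, without replicate 4) and 0.71 (without replicate 2), at -0.57 with only replicates 1 and 2, at 1.29 with only replicates 3 and 4, and at -0.22 against 2 RPKM. The number of genes below 1 RPKM was 4423, but 7777 when genes at 0 in every library were included and 1866 when genes had to exceed 0.1 RPKM in 2 libraries, since these settings change which low genes are tested. The 6 within-library differences kept their direction under the 9 alternatives run. No pairing of samples between groups was possible because the series has 1 group. Precision is limited for Cckar, Cckbr, and for Mboat4 and Gast in replicate 2, which rest on about 3 reads or fewer.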
